A study of Arabidopsis thaliana with 6 samples.

Results

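AT1G67360 and AT2G47780 encode lipid droplet proteins of the rubber elongation factor family in Arabidopsis thaliana. The members were these 2 named genes, 2 of the 13286 genes that had a probe set paired with a single gene, and both were chosen by their levels, NJ15 minus mock differences and spread between replicates in these same arrays. Each was measured by 1 probe set, 264968_at for AT1G67360 and 266503_at for AT2G47780. Total RNA came from seedlings of the Col-0 wild type that had grown upright on MS plates for 4 days. One group of 3 samples was sprayed with 10 µM NJ15, a synthetic tetrazole ester bearing a dichlorophenyl group, and the other group of 3 with a mock solution. All 6 samples were then rotated by 90 degrees and collected after 8 h, so both groups had been gravistimulated, and each sample was hybridised to 1 Affymetrix array. The labels call the 3 samples of a group biological replicates.

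Lipid droplets store neutral lipids, chiefly triacylglycerol and sterol esters, inside a single layer of phospholipids. In seeds they are coated by oleosins, whereas in leaves, roots and seedlings they carry the lipid droplet-associated proteins of the rubber elongation factor family, which lack the long hydrophobic hairpin of oleosins. These proteins are known to support droplet formation and stability and to be induced by abiotic stress. The family has 3 genes in Arabidopsis. AT1G67360 is known as LDAP1, AT2G47780 as LDAP2 and AT3G05500 as LDAP3.

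The deposited values are levels per probe set and array, taken as log2 from their range. Of the 22746 probe sets tested, 16602 (73.0%) held 6 values that spanned no more than 0.01 log2 units. These are called flat here, the other 6144 are called varying, and no change can be read from a flat probe set. Both members were measured by varying probe sets. The medians of the varying probe sets were 8.16, 8.21 and 8.15 on the NJ15 arrays and 8.09, 8.17 and 8.17 on the mock arrays. Having 3 arrays in each group limits how precisely any level is known.

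AT1G67360 was higher on every NJ15 array than on any mock array. Its log2 level was 9.75, 10.23 and 9.53 in NJ15 seedlings, replicates 1 to 3, against 7.72, 8.15 and 7.57 in mock seedlings. The groups did not overlap, and the lowest NJ15 array stood 1.38 log2 units above the highest mock array. The mean was 9.84 ± 0.36 (SD, n = 3) in NJ15 seedlings and 7.81 ± 0.30 (SD, n = 3) in mock seedlings, a difference of 2.02 log2 units or 4.06-fold. This difference was among the values that chose the gene, so it is given as a description with no test. Including its own, 35 of the 6144 varying probe sets had a difference of this size or larger. NJ15 arrays lay above all mock arrays with a difference of at least 1 log2 unit in 1.82% of varying probe sets, and 0.423% did so with at least 2 log2 units.

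The size of the AT1G67360 difference depended little on any single array. Across the 9 pairings of an NJ15 array with a mock array it lay between 1.38 and 2.66 log2 units, and it was positive in all 9. With each array left out in turn it lay between 1.83, without NJ15 replicate 2, and 2.19, without mock replicate 2. Replicate 2 was the highest array and replicate 3 the lowest in both groups. In seedling RNA, a difference in the number of cells that express a gene and a difference in its RNA per cell cannot be told apart.

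AT2G47780 did not separate the groups. Its log2 level was 9.84, 9.04 and 9.21 in NJ15 seedlings, replicates 1 to 3, against 10.43, 9.37 and 6.81 in mock seedlings. The NJ15 arrays stood within 0.80 log2 units of each other, while the mock arrays spanned 3.63 log2 units, or 12.3-fold. All 3 NJ15 values lay inside the mock range, above mock replicate 3 and below mock replicate 1. The mean was 9.36 ± 0.42 (SD, n = 3) in NJ15 seedlings and 8.87 ± 1.86 (SD, n = 3) in mock seedlings, a difference of 0.49 log2 units that is smaller than the spread of the mock arrays.

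The sign of the AT2G47780 difference rested on mock replicate 3. Without that array the difference was -0.54 log2 units, whereas without mock replicate 1 it was 1.27 and without mock replicate 2 it was 0.74. Leaving out NJ15 replicate 1, 2 or 3 gave 0.26, 0.65 and 0.57. Of the 9 pairings of an NJ15 array with a mock array 4 were positive, and their differences ran from -1.39 to 3.03. The median of the 3 arrays was 9.21 in NJ15 seedlings and 9.37 in mock seedlings, a difference of -0.16. When the levels were averaged on the linear scale, the log2 ratio of NJ15 to mock was -0.085, against 2.03 for AT1G67360. These 2 ways of averaging were chosen after the values were seen.

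**Figure D1:**
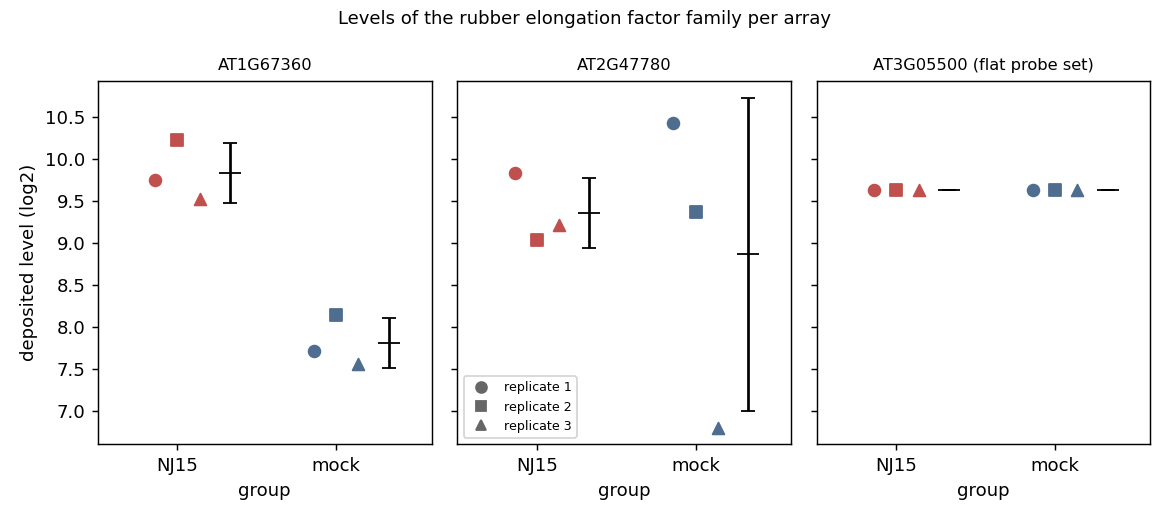
Deposited log2 level of the 3 family genes on each array, with NJ15 left and mock right in each panel, a symbol for each replicate number, and the mean with its SD (n = 3) beside the points. For AT1G67360 the NJ15 arrays lie at 9.53 to 10.23 and the mock arrays at 7.57 to 8.15, for AT2G47780 the NJ15 arrays lie inside the mock range of 6.81 to 10.43, and for AT3G05500 the probe set is flat at 9.63.

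The spread of the mock arrays set the 2 members apart. The SD of AT1G67360 was 0.36 in NJ15 seedlings and 0.30 in mock seedlings, and the SD of AT2G47780 was 0.42 in NJ15 seedlings and 1.86 in mock seedlings. Over all varying probe sets the median SD was 0.12 in NJ15 seedlings and 0.18 in mock seedlings. In the mock group, an SD at least as large as that of AT2G47780 was found in 20 of the 6144 varying probe sets (0.326%), and one at least as large as that of AT1G67360 in 1970 (32.1%). In the NJ15 group, 478 varying probe sets (7.78%) spread at least as much as AT2G47780 and 666 (10.8%) at least as much as AT1G67360. The spread between replicates was part of the rule for the 2 genes, so these ranks carry no test. Levels of AT1G67360 and AT2G47780 come from different probe sets and do not show which transcript was more abundant.

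**Figure D2:**
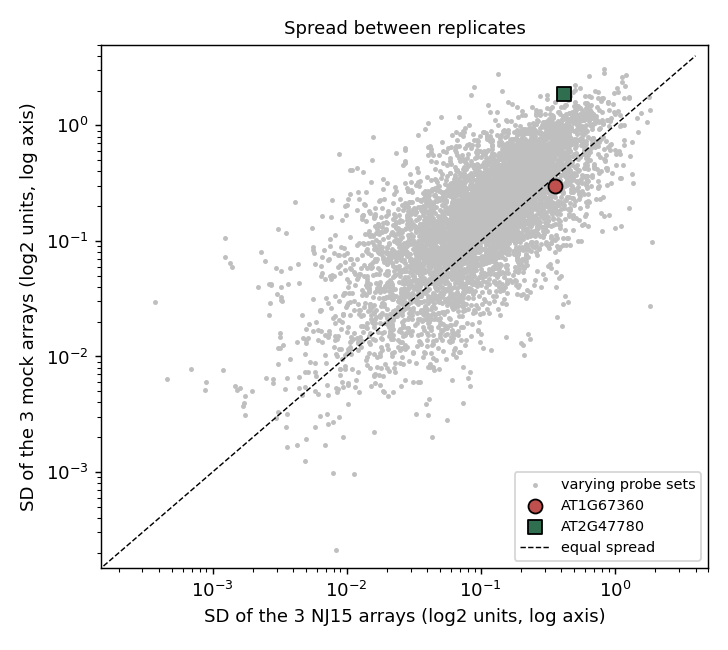
SD of the 3 NJ15 arrays (horizontal) against the SD of the 3 mock arrays (vertical) in log2 units on log axes, with 1 grey point for each of the 6144 varying probe sets. AT1G67360 lies near the line of equal spread at 0.36 and 0.30, and AT2G47780 lies near the upper edge of the cloud at 0.42 and 1.86.

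**Figure D3:**
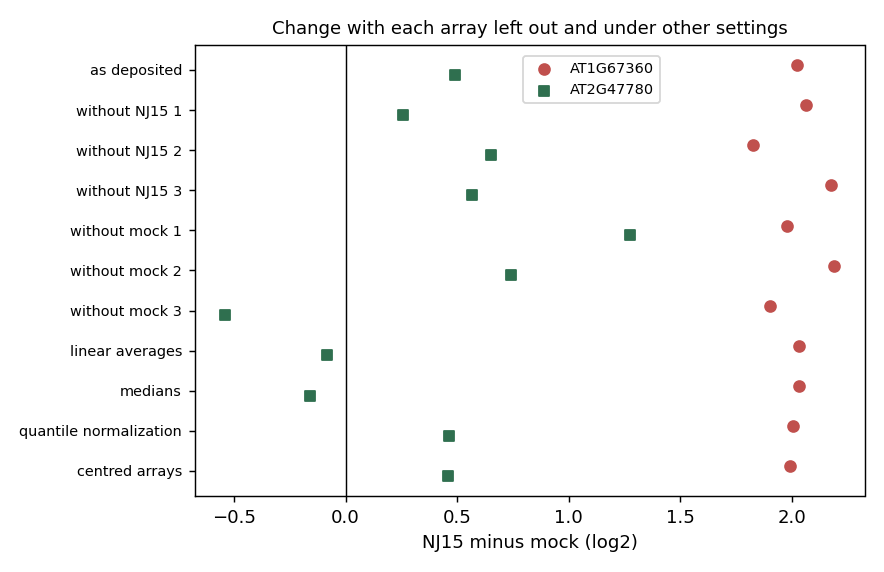
NJ15 minus mock difference in log2 units for AT1G67360 (circles) and AT2G47780 (squares) as deposited, with each array left out, and under other averages and scalings. AT1G67360 stays between 1.83 and 2.19, and AT2G47780 runs from -0.54 without mock replicate 3 to 1.27 without mock replicate 1.

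The third family gene, AT3G05500, had a flat probe set at 9.63 on all 6 arrays, so nothing can be said about its response. In the TAIR10.1 gene table AT1G67360 overlaps AT1G67350, whose probe set was flat at 10.27, and AT2G47780 overlaps AT2G47790, which had no named probe set. The probe positions were not used here, so whether the overlap touches the probe sets was not tested.

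No gene was among the 6 nearest profiles of both members. Nearness was the root mean square difference in log2 units over the 6 arrays, after each probe set was centred on its own mean, among 3044 other genes with a varying named probe set. AT2G47780 was 1.32 log2 units from AT1G67360, which made it number 2952 of 3044 in order of nearness to AT1G67360. In the opposite direction AT1G67360 was number 2619 of 3044 in nearness to AT2G47780. Values were centred and not scaled, so a wide spread alone moves a gene away in this order. The mock SD of AT2G47780 was 1.86, and spread was part of the rule that chose it. Neither rank therefore shows that the profiles differ in shape. The sixth nearest genes lay at 0.40 from AT1G67360 and 0.47 from AT2G47780. With the members 1.32 apart, no gene could be in both sets, so the lack of a shared gene adds nothing.

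Of the 6 genes nearest to AT1G67360, 3 were on a list of heat shock genes. That list had 8 varying genes among the 3044 candidates. It was chosen with earlier results of these data known, so the count carries no test. Fes1A (AT3G09350), an exchange factor of cytosolic HSP70, was nearest at 0.20 log2 units, and Hop3 (AT4G12400), a co-chaperone that links HSP70 and HSP90, followed at 0.22. Fes1A stood at 8.97, 9.19 and 8.85 in NJ15 seedlings against 6.86, 7.24 and 7.16 in mock seedlings. Hop3 stood at 8.68, 8.78 and 8.57 in NJ15 seedlings against 6.53, 6.73 and 6.69 in mock seedlings. On both genes the groups were apart, and NJ15 replicate 2 was the highest array, as it was on AT1G67360.

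The other 4 nearest genes were AT2G20560, a DnaJ protein, at 0.33, AT5G37670, a small heat shock protein, at 0.36, AT1G14200, a RING-type protein, at 0.36, and AT1G66080, a protein related to the nuclear import factor Hikeshi, at 0.40. Their NJ15 minus mock differences were 2.46, 1.50, 1.88 and 1.29 log2 units. In all 4 the NJ15 arrays lay above the mock arrays. The ranking uses all 6 arrays, so it selects genes that share the group difference of AT1G67360.

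Nearest to AT2G47780 were genes that also had a low value on mock replicate 3, which a ranking over all 6 arrays selects for. AT2G34020, a protein with calcium-binding EF hands, was nearest at 0.40 log2 units, and its level was 7.81, 7.21 and 7.66 in NJ15 seedlings against 8.64, 8.51 and 5.63 in mock seedlings. AT1G30760, of the berberine bridge enzyme family, was next at 0.41, with 9.70, 8.90 and 9.84 in NJ15 seedlings against 10.07, 9.95 and 6.47 in mock seedlings. On both, mock replicate 3 stood far below the other 5 arrays.

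The remaining 4 were ATSBT5.2 (AT1G20160), a subtilisin-like protease, at 0.43, AT4G11610, a C2 domain protein, at 0.45, AT5G23840, a protein with a lipid recognition domain, at 0.46, and AT1G66800, of the NAD(P)-binding Rossmann-fold family, at 0.47. Their NJ15 minus mock differences were 0.84, -0.02, -0.11 and 0.47, and the groups overlapped in each. Mock replicate 1 exceeded mock replicate 3 by 2.84, 2.79, 2.55 and 2.28 log2 units in these 4 genes, against 3.63 in AT2G47780. A gap of 3.63 or more in this direction occurred in 8 of the 6144 varying probe sets (0.130%), and one as large in the opposite direction in 9 (0.146%).

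**Figure D4:**
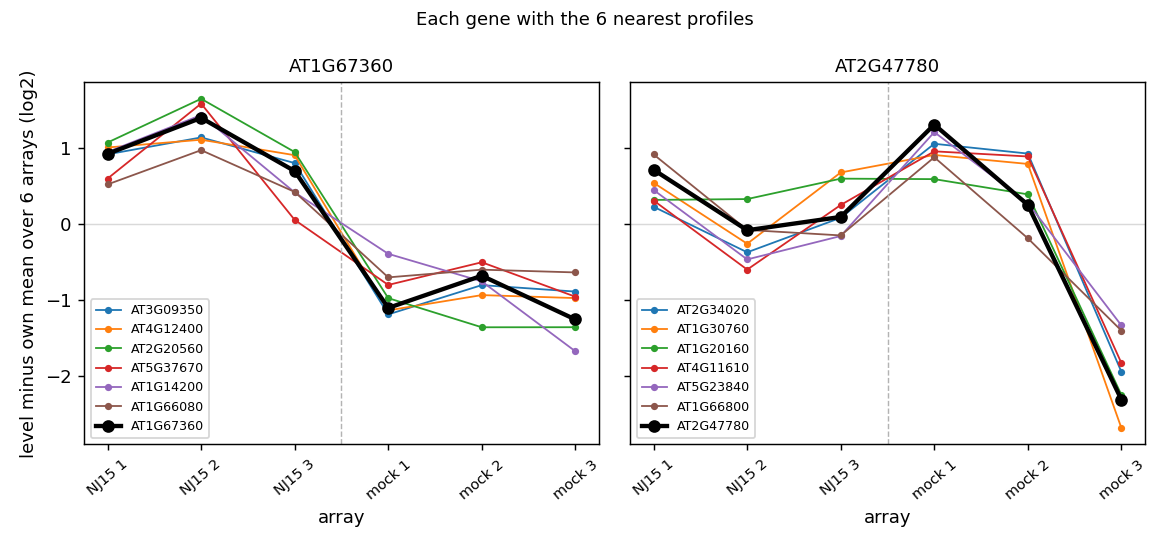
Level minus the gene's own mean over the 6 arrays, in log2 units, for AT1G67360 (left) and AT2G47780 (right) as thick black lines, each with its 6 nearest genes as thin lines, and the NJ15 arrays left of the mock arrays. The left profiles step between the groups, and the right profiles are lowest on mock replicate 3.

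Among other proteins of the lipid droplet, OLEO3 and OBL1 were the 2 genes on which a difference could be read, and both differed by less than AT1G67360. The list held 36 genes of oleosins, caleosins, steroleosins, seipins and droplet-associated enzymes. Of these 12 had a named probe set, 10 of the 12 were flat and none passed. Listed genes are called measured where they had a named probe set, which is one paired with a single gene. Of the 22746 probe sets 13436 were single-gene and matched a locus. A listed gene that was not measured may therefore still be on the array. Counts of genes that passed refer to an adjusted p under 0.05 in limma over all 22746 probe sets, which called 44 of them (0.193%), 40 of these flat. When limma was run on varying probe sets alone, 4 were called (0.0651%). OLEO3 (AT5G51210), an oleosin, had a log2 level of 8.18, 7.96 and 8.20 in NJ15 seedlings against 8.55, 8.71 and 7.39 in mock seedlings. Its lowest array was mock replicate 3, as for AT2G47780, and the NJ15 minus mock difference was -0.10 (limma, adjusted p = 1).

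AT3G14360 (OBL1), a triacylglycerol lipase of the oil body, stood at 7.50, 7.52 and 7.72 in NJ15 seedlings against 7.58, 7.66 and 7.26 in mock seedlings. The groups overlapped and the difference was 0.08 (limma, adjusted p = 0.999). Flat probe sets measured AT5G16550 (LDIP), which encodes the partner that helps to place LDAP proteins on droplets, and SEIPIN1 (AT5G16460), which shapes nascent droplets at the endoplasmic reticulum. AT4G10790 (PUX10), which recruits the machinery that extracts oleosins, had a flat probe set too, so these genes give no information on a change.

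In triacylglycerol synthesis 5 of 26 listed genes were measured and all 5 were flat, among them the acyl-ACP thioesterases FaTA (AT3G25110) and FATB (AT1G08510). In triacylglycerol breakdown and fatty acid oxidation 7 of 27 were measured, 3 varied and none passed. The median difference of the 3 was 0.47 log2 units, against -0.01 over all varying probe sets. That median is the value of the plastid lipase PLIP2 alone, and CGI58 and ICL differed by 0.83 and 0.11. Whether PLIP2 acts in triacylglycerol breakdown was not tested, so the median gives no direction for that process. AT4G24160 (CGI58), the plant relative of a mammalian regulator of lipid droplet lipolysis, had a log2 level of 9.33, 9.49 and 9.05 in NJ15 seedlings against 8.57, 8.54 and 8.25 in mock seedlings. The groups were apart, with a difference of 0.83 that did not pass (limma, adjusted p = 0.624). NJ15 arrays lay above all mock arrays in 6.51% of the varying probe sets.

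AT1G02660 (PLIP2), a plastid lipase, had 7.70, 8.40 and 7.54 in NJ15 seedlings against 7.79, 7.13 and 7.33 in mock seedlings. ICL (AT3G21720), the isocitrate lyase of the glyoxylate cycle that turns stored oil into sugar, had 9.02, 8.15 and 7.83 in NJ15 seedlings against 8.54, 8.24 and 7.87 in mock seedlings. The groups overlapped for both genes, and their differences of 0.47 and 0.11 did not pass (limma, adjusted p = 0.938 and 1). SDP1 (AT5G04040), the main lipase of stored oil, was flat.

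Of 31 listed genes that mark drought and abscisic acid 4 were measured, 3 varied and none passed. The 3 had a median difference of 0.24 log2 units. LEA4-5 (AT5G06760), a late embryogenesis abundant protein, stood at 7.13, 6.83 and 7.12 in NJ15 seedlings against 6.56, 6.77 and 6.40 in mock seedlings. The dehydrin COR47 (AT1G20440) stood at 11.47, 11.10 and 11.14 in NJ15 seedlings against 11.10, 10.93 and 10.96 in mock seedlings. In both the groups were apart, for COR47 by 0.0028 log2 units, against 6.51% of the varying probe sets with NJ15 above mock. Neither passed (limma, adjusted p = 0.826 and 0.856). LTI30 (AT3G50970), also a dehydrin, differed by 0.13 with overlapping groups (limma, adjusted p = 1).

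Heat shock genes were the list with differences of the size of AT1G67360. Of 23 listed genes 8 were measured, all 8 varied, and their differences ran from 0.17 to 3.61 log2 units with a median of 1.97, against -0.01 over all varying probe sets. Hop3 passed, with a difference of 2.03 (limma, adjusted p = 0.0456), and no other gene of the list did. This call was lost after quantile normalization (limma, adjusted p = 0.0735), with the replicate number as a block (0.554), with an intensity trend and robust prior (0.0711), without the lowest 25% of means (0.0653) and without any 1 array (0.109 to 0.172). It held with centred arrays (limma, adjusted p = 0.00075) and over varying probe sets alone (0.0053), where Fes1A passed too (0.0463). The groups were apart in 6 of the 8, against 6.51% of the varying probe sets. These 6 were Hop3, Fes1A and AT5G37670, given above, and AT5G51440, AT2G29500 and AT5G48570, which differed by 3.61, 2.68 and 2.62. AT5G51440 and AT2G29500 are small heat shock proteins and AT5G48570 is a heat-inducible immunophilin. In the rest of the 8 the groups overlapped, with differences of 0.49 and 0.17. The order of the NJ15 arrays seen in AT1G67360, with replicate 2 highest and replicate 3 lowest, was found in 6 of the 8 and in 15.1% of the varying probe sets. This list was chosen with earlier results of these data known, so its median and counts carry no test. Its genes were read on the same arrays and are not separate replicates. The mean of the 8 was 8.44, 8.61 and 7.92 in NJ15 seedlings and 6.39, 6.59 and 6.36 in mock seedlings.

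**Figure D5:**
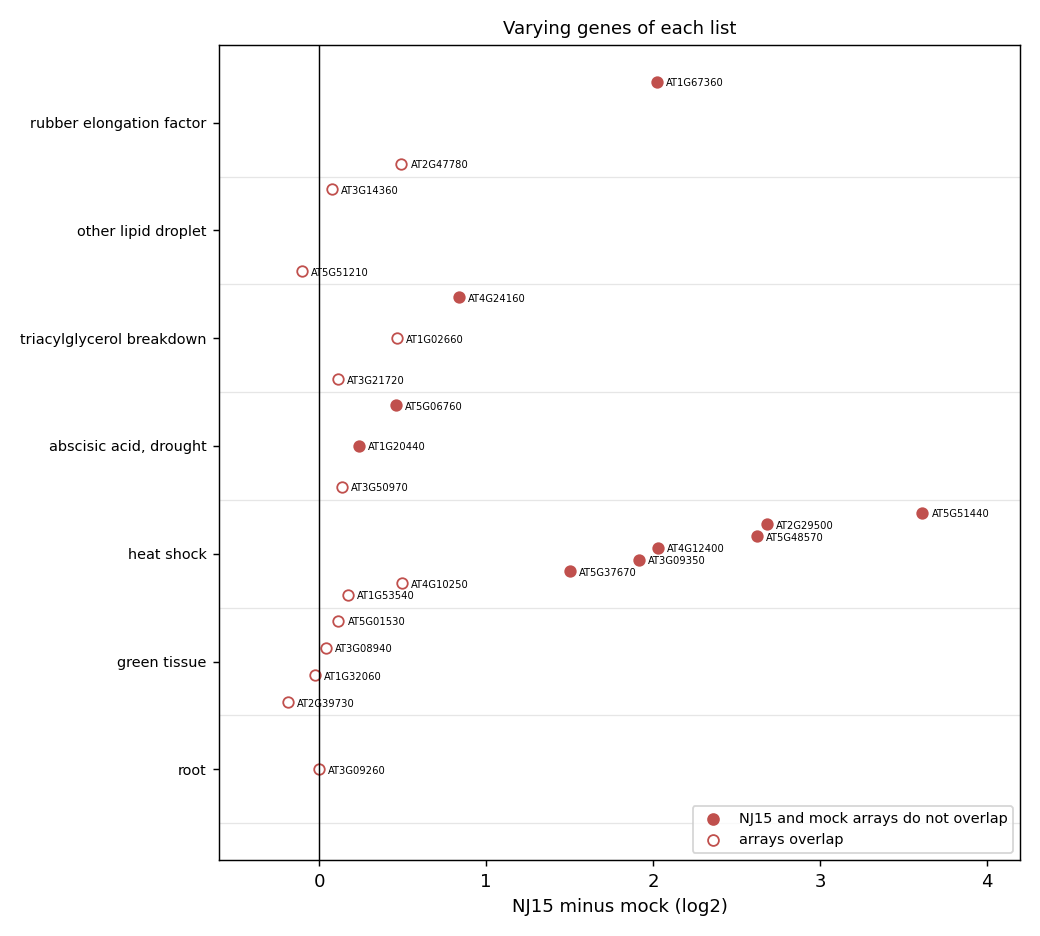
NJ15 minus mock difference in log2 units for each varying gene, 1 row of points per list, filled where the NJ15 and mock arrays did not overlap and open where they did. AT1G67360, at 2.02, lies among the heat shock genes and above the other lipid droplet and triacylglycerol genes, which run from -0.10 to 0.83.

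Within both groups the mean of green tissue markers ran opposite to AT2G47780. The 4 of 17 listed photosynthetic genes that were measured, LHCB4.1, LHCB4.2, RCA and PRK, all varied. Their mean log2 level was 11.00, 11.62 and 11.59 in NJ15 seedlings, replicates 1 to 3, against 10.75, 11.44 and 12.06 in mock seedlings. Within the mock group it was lowest on replicate 1, where AT2G47780 was highest, and highest on replicate 3, where AT2G47780 was lowest. Within the NJ15 group it was lowest on replicate 1, where AT2G47780 was highest, and highest on replicate 2, where AT2G47780 was lowest. All 4 markers had their lowest mock value on replicate 1, as did 38.7% of all varying probe sets. The NJ15 minus mock difference of the mean was -0.01 log2 units (exact permutation test, two-sided, p = 1, where 3 against 3 arrays cannot give less than 0.1). The part of green tissue in the AT2G47780 values was not tested.

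Of 9 listed root markers 3 were measured. PYK10 (AT3G09260), a root glucosidase of endoplasmic reticulum bodies, stood at 13.21, 13.18 and 13.27 in NJ15 seedlings against 13.29, 13.32 and 13.05 in mock seedlings, and the root hair expansins EXPA7 and EXPA18 were flat. Mock replicate 3 was the lowest mock array for PYK10, OLEO3, AT3G14360 and both members. It was so in 43.5% of all varying probe sets. Among the varying genes of the other lists it was lowest in 2 of 3 for triacylglycerol breakdown and 2 of 3 for drought. The counts were 3 of 8 for heat shock and 0 of 4 for green tissue, so the trait is not particular to the genes named. None of the 8 listed seed storage genes had a named probe set, so remains of seed tissue were not analysed here.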

How the data were processed

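Per the labels' protocols, a column kit for plants gave the total RNA, and biotin was added with Affymetrix's 3 prime in vitro transcription kit. R 2.7.2 is listed per the submitters' processing notes; the methods of summarization, scaling and background correction were not stated in the sources read. The deposited values are taken as log2 from their range of 5.30 to 14.04, and they were used as deposited, without further normalization. No scanner values were used, so signal over background is unknown.

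After 64 control probe sets were left out, the NJ15 and mock groups were fitted in limma 3.58.1 (lmFit, then eBayes; R 4.3.3), and two-sided p-values were adjusted by Benjamini-Hochberg over the 22746 probe sets left. Each probe set was first expressed as differences to 1 array, rounded to 9 decimals. The fit was run on simulated normal values with known added differences. This checked the code and not the calls in these data. Means are given ± SD over arrays. Figures were drawn with matplotlib 3.10.9.

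The platform annotation gave the gene of each probe set, and the TAIR10.1 gene table its current name and neighbours. Of 13513 single-gene probe sets 13436 matched a locus; the probe set with the highest mean stood for a gene. Of 180 listed loci 46 had a named probe set. The members, the 9 lists and the tests were chosen with earlier results of these data known, so the members carry no test. Named were the members, AT3G05500, up to 6 varying genes of each list by size of difference, and the 6 nearest genes of each member; flat list genes, overlapping genes and markers were named besides, after their values were seen. Alternatives were other scalings, filters, priors and averages, the replicate number as a block, and each array left out.

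Promoter motifs were not analysed here. Replicate numbers were not used to pair the samples in the main fit. Deviations from the group means correlated at 0.59, -0.30 and 0.19 for numbers 1, 2 and 3 over varying probe sets. Unequal numbers gave -0.52 to 0.42. With 3 arrays per group these values cannot decide whether equal numbers belong together.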

Additional observations from a re-analysis of the deposited data

How the results depend on the processing

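AT1G67360 stayed between 1.83 and 2.19 log2 units in the leave-outs and under the other averages and scalings, and was 2.01 after quantile normalization and 1.99 with arrays centred on the median of varying probe sets. AT2G47780 ran from -0.54, without mock replicate 3, to 1.27 in the leave-outs, and was -0.085 with averages on the linear scale and -0.16 with medians, 0.46 under both scalings. A block on the replicate number cannot move either difference in this balanced design, so 2.02 and 0.49 under the block say nothing about stability. The green tissue mean, at -0.01, turned to 0.0025 after quantile normalization and ranged from -0.35 to 0.31 in the leave-outs, turning positive without mock replicate 3 (0.31) and NJ15 replicate 1 (0.19).

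The 44 limma calls over all probe sets became 4 over varying probe sets alone (0.0651%), among them Hop3 and Fes1A (limma, adjusted p = 0.0053 and 0.0463), 10 with centred arrays, 1 without the lowest 25% of means, and 4 to 15 in the leave-outs. They were 0 after quantile normalization, with the replicate number as a block, and with an intensity trend and robust prior, where 3347, 1208 and 886 probe sets had an unadjusted limma p under 0.05. In 118 varying probe sets the groups did not overlap and their means differed by at least 1 log2 unit, 112 higher and 6 lower with NJ15. These became 26 at 2 log2 units and 116 to 212 in the leave-outs, with 212 without mock replicate 1 and 194 without NJ15 replicate 3. Fewer probe sets or arrays entered some of these; otherwise the cause was not tested.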
